A study of Mus musculus with 6 samples.

Results

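The genes of oxidative phosphorylation were taken as all symbols of the feature lists that begin with Ndufa, Ndufb, Ndufc, Ndufs, Ndufv, Uqcr, Cox followed by a digit from 4 to 8, Atp5, mt-Nd, mt-Co, mt-Cytb or mt-Atp. The rule found 102 members among 31053 genes, of which 89 are encoded in the nucleus and 13 on the mitochondrial chromosome, and it used no measured value. The nuclear members were 38 named as complex I subunits, 8 complex I assembly factors (the Ndufaf genes), 8 of complex III, 18 of complex IV and 17 of complex V. The mitochondrial members were 7 of complex I, 1 of complex III (mt-Cytb), 3 of complex IV and 2 of complex V. Of the nuclear members, 84 were counted in all 6 libraries, 77 had at least 100 unique molecular identifiers (UMIs, 1 per captured mRNA molecule) in each of them, and Cox7b2 was counted in none.

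Oxidative phosphorylation is the process in the inner mitochondrial membrane by which electrons from nutrients pass along complexes I to IV to oxygen while protons are pumped outwards, and by which complex V lets the protons flow back to make ATP. Most subunits are encoded in the nucleus, made in the cytosol and imported, whereas the 13 hydrophobic core subunits encoded by mitochondrial DNA are transcribed and translated inside the organelle, so that each complex except II is built from both genomes. Dendritic cells (DCs), which take up and present antigen, are known to lean on glycolysis after inflammatory activation, tolerogenic DCs made with vitamin D3 are known for an active oxidative metabolism, and neutrophils are known to carry few mitochondria.

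Single-cell RNA was counted at the 3′ end in 6 droplet libraries (10x Genomics), 1 per condition, with the question of how modified DCs and the wounds they were delivered to differ from their controls. The 3 culture libraries held bone marrow-derived cells of C57BL/6 mice grown in GM-CSF: untreated DCs, DCs given vitamin D3 (VD3, calcitriol, at 1e-06 M for 24 h from culture day 7), and Ndrg2-KO DCs, in which Ndrg2 had been cut by Cas9 ribonucleoprotein nucleofected with a set of guides. The untreated and VD3 DCs were not nucleofected, so the knockout and the nucleofection cannot be told apart in the cultures. The 3 wound libraries held digested splinted full-thickness wounds of 6-week-old C57BL/6J mice, explanted on day 10 after pullulan-collagen hydrogels seeded with control DCs, Ndrg2-KO DCs or no cells (blank) had been applied. The control DCs are untreated by their label and nucleofected with non-targeting guides by the written methods. The wound cells were not separated into delivered and host cells, and the labels do not divide a library by mouse, while the written methods describe tissue from several mice of each group, so that each wound library may hold pooled animals. Since each condition had a single library, conditions could not be tested against each other: all intervals below are exact 95% intervals that cover counting error only, and differences between animals, cultures or library preparations cannot be told apart from the conditions.

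A minimum of 300 genes per cell, a maximum of 100000 UMIs and a mitochondrial share below 10% left 7257, 8825 and 7969 cells of the untreated, VD3 and Ndrg2-KO cultures and 1948, 5681 and 3403 cells of the control DC, Ndrg2-KO DC and blank hydrogel wounds. Kept UMIs summed to between 116461484 and 143627482 per culture and between 29675507 and 49240341 per wound library. The targeted gene, Ndrg2, was at 4.62, 1.42 and 0.884 CPM (the usual scaled share of a gene's UMIs among all UMIs of the same cells) in the untreated, VD3 and Ndrg2-KO cultures, where counts at the 3′ end do not show whether the guide sites were cut. Libraries shared at most 19 kept cell barcodes. The cultures were mixtures, with clusters named by markers of mature DCs, immature DCs or macrophages, cycling cells, granulocyte-monocyte progenitors, neutrophils and basophils, and many clusters came almost wholly from 1 library. The marker sets did not fully separate. The progenitor-like cluster, with 4 of 5 progenitor markers, also had 6 of 6 cycling and 6 of 8 neutrophil markers. The cycling-like cluster led by Cep55 also had 5 of 9 immature DC or macrophage markers. Mature DC-like cells were mostly a cluster led by Eno3 and Grasp in the untreated culture, by Olfr920 and Ndnf in the VD3 culture and by Htra1 and Klrd1 in the Ndrg2-KO culture.

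In the cultures the nuclear members summed to 26023 CPM in untreated DCs, 28313 CPM in VD3 DCs and 23929 CPM in Ndrg2-KO DCs. The 13 mitochondrial members made up 56616 CPM in untreated, 62329.5 CPM in VD3 and 67853 CPM in Ndrg2-KO DCs. The VD3 library was thus higher than the untreated one in both sums, by 0.12 (nuclear) and 0.14 (mitochondrial) on the log2 scale, while the Ndrg2-KO library was lower in the nuclear sum (-0.12) and higher in the mitochondrial sum (0.26). The mitochondrial sum over the nuclear sum was 2.18, 2.20 and 2.84 in the same order. In wounds both sums were lower than in any culture: the nuclear members reached 10583 CPM with control DCs, 12521 CPM with Ndrg2-KO DCs and 11548 CPM with blank hydrogels, and the mitochondrial members 21439, 19724 and 20401 CPM. Against control DC wounds the nuclear sum was higher in Ndrg2-KO DC wounds by 0.24 and in blank wounds by 0.13, and the mitochondrial sum differed by -0.12 and -0.072. A CPM value is a share of all RNA counted, so fewer cells of a kind and less RNA per cell cannot be told apart, and a larger share of one group of genes lowers the share of all others.

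**Figure D1:**
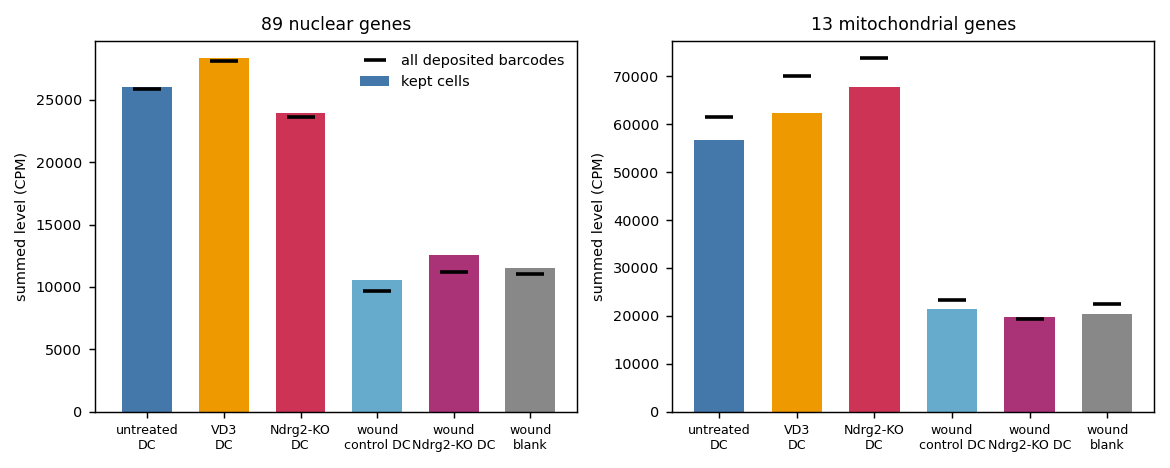
Summed CPM of the nuclear (left) and mitochondrial (right) oxidative phosphorylation genes in each of the 6 libraries, over kept cells and over all deposited barcodes. The nuclear sums of the 3 cultures (23929 to 28313 CPM in kept cells) lie above those of the 3 wounds (10583 to 12521 CPM), and among kept cells the Ndrg2-KO culture is lowest in the left panel and highest in the right panel of the cultures.

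The cell filter bears directly on the mitochondrial sums. It left out 7.68, 9.80 and 12.7% of the barcodes of the untreated, VD3 and Ndrg2-KO cultures for 10% or more mitochondrial UMIs, and 1.95 to 4.17% in the wounds. Just inside the limit, at 9 to 10%, lay 191, 401 and 757 kept cells of the 3 cultures, and just outside it, at 10 to 11%, lay 88, 214 and 487 barcodes, so the Ndrg2-KO culture had the most cells on either side. Over all deposited barcodes the mitochondrial sums were 61470 CPM, 69971 CPM and 73724 CPM in the cultures, in the same order as in kept cells, and the nuclear sums were 25833, 28065 and 23631 CPM. With a limit of 5% in place of 10%, the mitochondrial sum turned lower than in untreated DCs, by -0.19 for VD3 and -0.0094 for Ndrg2-KO DCs, and as a mean over cells the VD3 difference was -0.011. The 5% limit lies below the median share of kept cells in each culture (5.30, 5.60 and 6.60%), so it selects cells on the compared value itself.

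Complex by complex, the highest nuclear levels in the cultures were those of complexes IV and V, whereas in the wounds complex I (3165, 3773 and 3372 CPM) was above complex IV (2940, 3555 and 3313 CPM). Complex IV, cytochrome c oxidase, summed to 7929, 9027 and 7659 CPM in the untreated, VD3 and Ndrg2-KO cultures, and complex V, the ATP synthase, to 7897, 8217 and 7240 CPM. Complex I, the NADH dehydrogenase with the largest number of subunits, summed to 7109, 7613 and 6215 CPM, complex III, which passes electrons to cytochrome c, to 2866, 3245 and 2653 CPM, and the complex I assembly factors to 223, 211 and 161 CPM. The VD3 library was highest in each complex and the Ndrg2-KO library lowest, and the assembly factors, highest in untreated DCs, were the exception. These are 3′ end counts, compared without a length correction.

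The members with the highest mean level in each group were as follows. Cox8a, the smallest nuclear subunit of complex IV, was at 1586, 2006 and 1528 CPM in untreated, VD3 and Ndrg2-KO DCs and at 411 to 569 CPM in wounds. Atp5e, the epsilon subunit of the ATP synthase rotor, was at 859, 894 and 865 CPM in the cultures and 535 to 626 CPM in wounds. Uqcrh, the hinge subunit of complex III, was at 798, 1100.4 and 810 CPM, which puts the VD3 library apart from the other two. Ndufa13, a complex I subunit also known as Grim19, was at 410, 454 and 398 CPM, and Ndufaf8, an assembly factor, at 83.0, 79.6 and 60.3 CPM.

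The promoters of the nuclear members were read from RefSeq sequences (GRCm38.p6, from 250 bases before to 50 bases after the gene start) to see what the set shares beyond its names, and 71 of the 88 distinct nuclear symbols had an entry. Motifs of 7 letters of factors known for promoters of this kind were searched on both strands: GCGCATG for NRF1, CCGGAAG for ETS factors such as NRF2, and AAGATGG for YY1. NRF1 letters were in 14 of the 71 members (19.7%) and in 4.41% of all 27025 genes of the table, ETS letters in 16 (22.5%) and 9.93%, and YY1 letters in 11 (15.5%) and 7.28%, so that each was more common among the members than among all genes. At least 1 of the 3 was found in 33 members (46.5%) and in 19.5% of all genes. The 100 bases just before the start are shown for Uqcrh and Ndufaf8, which hold the ETS letters there (in capitals), and for Cox8a, the member with the highest level, which holds them in its window but outside the stretch shown. All are written 5′ to 3′ along the gene.
Uqcrh, chr4:116075071-116075170, minus strand: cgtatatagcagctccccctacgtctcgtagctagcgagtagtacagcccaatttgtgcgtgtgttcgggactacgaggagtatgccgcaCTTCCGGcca
Ndufaf8, chr11:120098834-120098933, plus strand: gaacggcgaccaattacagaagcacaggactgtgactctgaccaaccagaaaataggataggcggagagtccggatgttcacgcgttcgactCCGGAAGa
Cox8a, chr19:7217617-7217716, minus strand: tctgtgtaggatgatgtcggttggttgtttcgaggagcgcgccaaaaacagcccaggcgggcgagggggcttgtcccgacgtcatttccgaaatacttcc
In Uqcrh the capitals are the same motif read on the other strand. The windows of Ndufa4 and Ndufa13 held none of the 3 motifs, which says only that these letters are not in these windows.

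VD3 DCs and untreated DCs differed little in the members. Of 83 nuclear members with at least 100 UMIs in both libraries together, 54 were higher and 29 lower in VD3 DCs, with a median log2 ratio of 0.060 beside -0.077 over all 12296 genes compared. Past 1.5-fold lay 1 nuclear member that was higher and 1 that was lower, and none of the 13 mitochondrial members, in a comparison in which 24% of all genes were past 1.5-fold (8.91% higher and 15% lower). The member that was higher, Cox7a1, the heart and muscle form of a complex IV subunit, was at 2.92 CPM without and 6.27 CPM with VD3, a log2 ratio of 1.10 (0.92 to 1.28). The lower one was Cox6a2, the muscle form of another complex IV subunit, at 1.65 and 0.919 CPM (-0.85, -1.19 to -0.51). Both are rare transcripts here. Next on the higher side came Uqcrh (0.46) and Atp5g2 (0.42), which are abundant, and on the lower side the assembly factors Ndufaf6 (-0.48) and Ndufaf5 (-0.44), which are at low levels.

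Cox7a1 was not spread evenly over the VD3 cells. It was at 11.03 CPM in the granulocyte-monocyte progenitor-like cells of the VD3 culture (1.81 CPM, from 5 UMIs, in such cells of the untreated culture), at 11.5 CPM in an unnamed VD3 cluster led by Gdf15 and Ms4a7, and at 14.4 CPM, from 46 UMIs, in shallow VD3 cells led by Ifitm6 and Igkc. In mature DC-like cells Cox7a1 was at 1.52 CPM with VD3 and 0.859 CPM without. The progenitor-like cluster held 1082 VD3 and 103 untreated cells. The part of this unequal number of cells in the library value was not tested.

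The 3 genes for subunit c, which forms the rotating ring of the ATP synthase and is the same mature protein from each gene, differed in direction. Atp5g1 was at 537, 440.5 and 388 CPM in untreated, VD3 and Ndrg2-KO DCs, Atp5g2 at 712, 955 and 758 CPM, and Atp5g3 at 381, 322 and 389 CPM. Against untreated DCs, VD3 DCs were thus lower in Atp5g1 (-0.29) and Atp5g3 (-0.24) and higher in Atp5g2 (0.42), and Ndrg2-KO DCs were lower in Atp5g1 alone (-0.47, with 0.091 for Atp5g2 and 0.030 for Atp5g3). By cell state, Atp5g1 ran from 208 CPM in mature DC-like cells of the Ndrg2-KO culture and 223 CPM in those of the untreated culture to 678 CPM in untreated cycling-like cells and 827 CPM in untreated progenitor-like cells, and it was highest, at 1180 CPM, in untreated cells of the shallow cluster led by Ifitm6 and Igkc. Its share of the 3 genes' UMIs was 16.4% in untreated mature DC-like cells and 37.5% in untreated cycling-like cells.

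Ndrg2-KO DCs were lower than untreated DCs in most nuclear members. Of 83 compared, 61 were lower and 22 higher, with a median log2 ratio of -0.17 beside -0.059 over all 12461 genes. Short genes as a whole were lower in this comparison: the shortest quartile by transcript length, which held 74 of the 83, had a median of -0.13, beside -0.057, -0.025 and -0.032 in the longer quartiles, and its members one of -0.16. Against VD3 DCs the quartile medians were -0.12, 0.024, 0.085 and 0.047, and that of the 74 members -0.23. The part of transcript length was not tested. Against untreated DCs none of the 83 was past 1.5-fold on the higher side and 5 were past it on the lower side, and of the mitochondrial members 1 was past it in each direction, where 34.9% of all genes were past 1.5-fold (17% higher and 17.9% lower). The 5 were Ndufa4 of complex I by name, the assembly factors Ndufaf4, Ndufaf6 and Ndufaf7, and Cox6a2 (-0.65, which turned to 0.049 with a 5% mitochondrial limit). With that limit 1 nuclear member was past it on the higher and 3 on the lower side. When scaled without mitochondrial and ribosomal protein genes the counts were 0 and 8. Ndufaf4 was at 38.3 and 23.5 CPM (-0.71, -0.77 to -0.64), Ndufaf7, a methyltransferase that acts on a complex I subunit, was at 12.7 and 7.64 CPM (-0.73, -0.84 to -0.62), and Ndufaf6 was at 11.1 and 7.34 CPM (-0.60, -0.71 to -0.48). All 8 assembly factors were lower in Ndrg2-KO DCs, with a summed log2 ratio of -0.47, against -0.19 for complex I, -0.11 for complex III, -0.050 for complex IV and -0.13 for complex V. On the higher side stood Ndufa1, an early-assembling subunit of the complex I membrane arm, at 170 and 237 CPM (0.48), and the testis form Cox6b2 at 5.11 and 7.02 CPM (0.46).

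Against VD3 DCs the Ndrg2-KO library was lower in 73 of 83 nuclear members and higher in 10, with a median log2 ratio of -0.23 beside 0.0014 over all 12402 genes, of which 6195 were lower. This comparison and the other two of the cultures share libraries. It had 1 nuclear member past 1.5-fold on the higher side, Cox6b2 (0.59), and 7 on the lower side, and 4 of the 13 mitochondrial members past it on the lower side, where 37.4% of all genes were past 1.5-fold (20.8% higher and 16.6% lower). With a 5% mitochondrial limit 1 mitochondrial member was past it on the higher and 2 on the lower side. The lower nuclear members were Ndufa4 (-1.49), Ndufa3 (-0.75), Cox7a1 (-0.64, which turned to 0.24 with a 5% mitochondrial limit) and Ndufaf2 (-0.62), and, named here after their values were seen, Ndufb11 (-0.64), Ndufaf1 (-0.63) and Cox5b (-0.59). Cytosolic ribosomal protein genes moved with these comparisons, at 194531, 233994 and 136524 CPM in untreated, VD3 and Ndrg2-KO DCs. The nuclear RNAs Malat1 and Neat1, taken as a sign of RNA quality, had a sum that differed by 0.67 for VD3 and -1.08 for Ndrg2-KO against untreated DCs and by -1.75 between them, with 2, 0 and 0 of the 2 past 1.5-fold higher and 0, 1 and 1 lower. Malat1 was at 9106.5, 14509 and 4058 CPM in untreated, VD3 and Ndrg2-KO DCs. Neat1, at 303, 479 and 387 CPM, was higher in Ndrg2-KO than in untreated DCs. The part of ribosomal protein genes and of these nuclear RNAs in the differences was not tested. With CPM scaled to all RNA other than mitochondrial and ribosomal protein genes, the nuclear sum differed by 0.21 for VD3 and -0.21 for Ndrg2-KO against untreated DCs, 63 members were higher and 20 lower with VD3 and 9 higher and 74 lower with Ndrg2-KO, where 6292 of all genes were higher and 6004 lower with VD3 and 4984 higher and 7477 lower with Ndrg2-KO. On that scale the mitochondrial sum of Ndrg2-KO against VD3 DCs turned from 0.12 to -0.055, and 22 members were past 1.5-fold, all lower, where 23.8% of all genes were past it on the lower side and the median of all genes was -0.18.

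**Figure D2:**
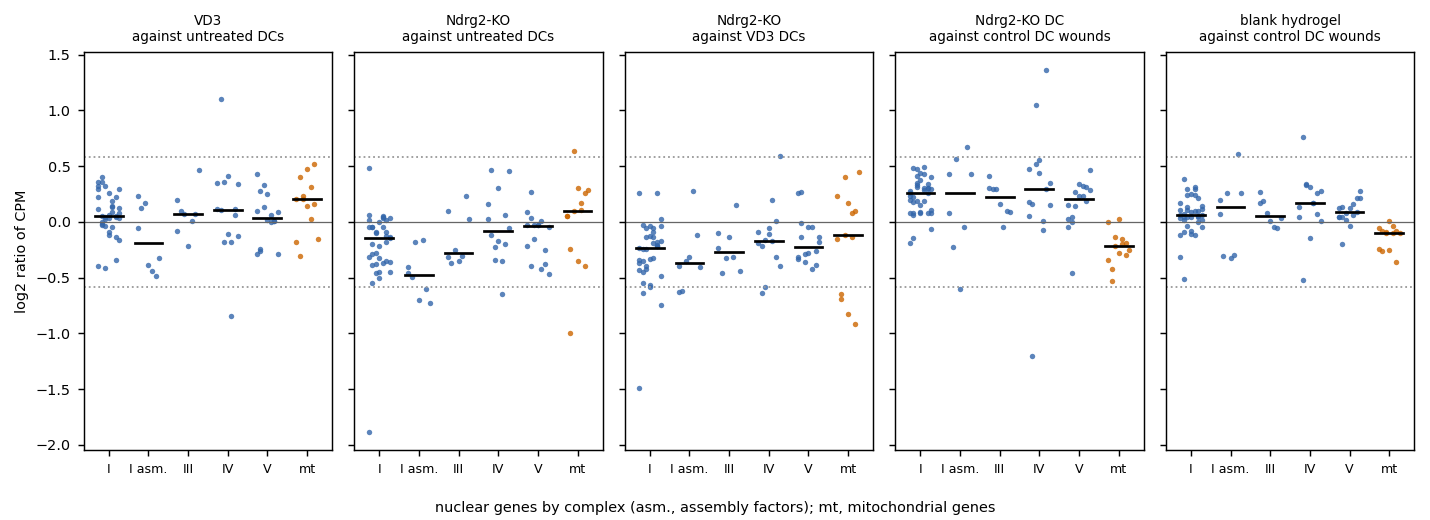
Log2 ratio of CPM of each member with at least 100 UMIs in the pair of libraries, by complex, for the 5 comparisons (blue, nuclear; orange, mitochondrial; bar, median; dotted lines, 1.5-fold). Ndufa4 stands alone at -1.89 in the second panel and -1.49 in the third, and in the fourth panel 73 of 85 nuclear points lie above 0 and 12 of 13 mitochondrial points below it.

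Ndufa4 had the largest difference in the cultures among nuclear members with at least 100 UMIs in the pair. The gene (chromosome 6, 11900292 to 11907497, minus strand, GRCm38) encodes a subunit first placed in complex I and later found with complex IV. It was at 315 CPM in untreated DCs, 240 CPM in VD3 DCs and 85.2 CPM in Ndrg2-KO DCs, from 41734 UMIs in the untreated and 12231 UMIs in the Ndrg2-KO library, a log2 ratio of -1.89 (-1.92 to -1.86). In wounds it was at 181 CPM with control DCs, 207 CPM with Ndrg2-KO DCs and 186 CPM with blank hydrogels, a spread far smaller than in the cultures.

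Ndufa4 followed the cell state as well as the library. In clusters built without any member gene, it was at 73.6 CPM in mature DC-like cells of the untreated culture, 72.9 CPM in those of the VD3 culture and 52.7 CPM in the main mature cluster of the Ndrg2-KO culture. It was at 471 CPM in untreated cycling-like cells, 848 CPM in untreated and 444 CPM in VD3 progenitor-like cells, 677 and 616 CPM in basophil-like cells of the same cultures, and 334 and 357 CPM in neutrophil-like cells. In Ndrg2-KO cells the level was low outside the mature clusters too: Ndufa4 was at 76.3 CPM in the immature DC or macrophage-like cluster led by Arg1, and at 109 CPM in the cycling-like cells led by Cep55. In the cycling-like cluster that held both libraries it was at 471 CPM in 1674 untreated cells and 271 CPM in 121 cells of the knockout, and in the shallow cluster led by Ifitm6 and Igkc it was at 465 and 188 CPM. In the mature DC-like cluster that held both it was at 73.6 CPM (71.0 to 76.3) in untreated and 86.4 CPM (71.8 to 103) in the knockout cells, and in the shallow cluster led by Gm26917 at 86.6 CPM (59.2 to 122) and 73.6 CPM (49.3 to 106), so in these pairs the counting intervals overlapped.

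Across the 17 culture clusters Ndufa4 varied the most of 71 nuclear members with a mean of at least 50 CPM, with a range of 3.59 on the log2 scale beside a median of 1.40. It was followed by Ndufa5 (2.51), a peripheral-arm subunit of complex I, and Atp5g1 (2.39), both highest in the shallow cluster led by Ifitm6 and Igkc. The libraries were pooled within clusters for these ranges, so differences between libraries and shallow cells enter them. The smallest range was that of Ndufa1 (0.65), which ran from 163 to 256 CPM.

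AA467197, also named Nmes1, encodes a protein related to Ndufa4 and was looked at after its values were seen. It was at 1327 CPM in untreated, 558 CPM in VD3 and 1645 CPM in Ndrg2-KO DCs, so that the Ndrg2-KO culture, lowest in Ndufa4, was highest in AA467197. The VD3 culture was intermediate in Ndufa4 and lowest in AA467197. By cell state AA467197 was at 52.6 CPM in untreated progenitor-like and 43.0 CPM in untreated basophil-like cells, the states highest in Ndufa4, but at 466 CPM in VD3 progenitor-like cells, which had 444 CPM of Ndufa4. It was at 925 CPM in untreated mature DC-like, 1462 CPM in Ndrg2-KO mature DC-like and 1832 CPM in Ndrg2-KO Arg1-led cells. Both genes were high in some states, as in untreated cells of a cluster led by Plet1 and Cxcl3, with 298 CPM of Ndufa4 and 2386 CPM of AA467197.

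In wounds the levels of the pair also differed between cell states. Ndufa4 was at 14.1, 14.3 and 20.5 CPM in the main neutrophil-like cluster (control DC, Ndrg2-KO DC and blank) and AA467197 at 269.7, 326 and 248 CPM. In macrophage-like cells led by Cd209g and Lyve1, Ndufa4 was at 207, 371 and 232 CPM and AA467197 at 3.55, 7.81 and 2.33 CPM, the latter from 5, 23 and 2 UMIs. Macrophage-like cells led by Mmp12 and Arg1 were between these for Ndufa4 and above both for AA467197, with 62.7, 105 and 162 CPM of Ndufa4 and 604, 984 and 381 CPM of AA467197.

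**Figure D3:**
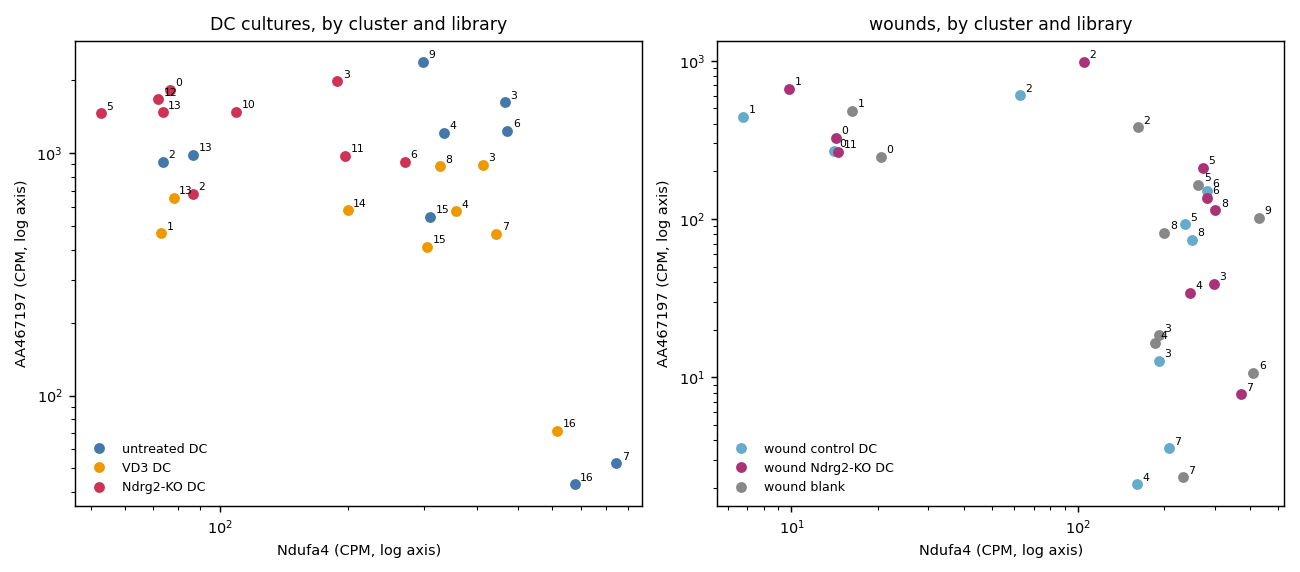
Ndufa4 (horizontal) against AA467197 (vertical), both in CPM on log axes, in each cluster with at least 50 cells of a library (left, cultures; right, wounds; numbers, clusters). Untreated progenitor-like (7) and both basophil-like (16) points lie at lower right, Ndrg2-KO clusters 0, 5 and 12 at upper left, and wound neutrophil-like clusters (0 and 1) at far left.

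The mitochondrial members are cut from long transcripts that cover each strand of the mitochondrial chromosome. The 3 cytochrome c oxidase genes and mt-Atp6 together held most of their UMIs. In untreated DCs mt-Atp6, a proton channel subunit of complex V, was at 12113 CPM, mt-Co1, the catalytic subunit of complex IV, at 11492 CPM, mt-Co2 at 10752 CPM and mt-Co3 at 9354 CPM. mt-Cytb, the core of complex III, was at 4157 CPM, mt-Nd4 at 3285 CPM and mt-Nd1 at 2213 CPM, and mt-Nd6, the only member on the other strand, at 31.4 CPM.

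In the Ndrg2-KO culture the mitochondrial members differed from untreated DCs in both directions, with 9 of 13 higher and 4 lower. With a 5% mitochondrial limit 3 were higher and 10 lower, and when scaled without mitochondrial and ribosomal protein genes 7 were higher and 6 lower. Under both settings none, mt-Co1 included, was past 1.5-fold on the higher side. mt-Co1 was at 11492 CPM in untreated, 13458 CPM in VD3 and 17831 CPM in Ndrg2-KO DCs (Ndrg2-KO against untreated 0.63, past 1.5-fold), and mt-Co2 (0.31), mt-Nd1 (0.29), mt-Cytb (0.26) and mt-Nd5 (0.17) were among the higher ones. mt-Nd3, a small complex I subunit, was at 759, 613 and 380 CPM, with log2 ratios of -0.996 (-1.01 to -0.98) against untreated and -0.69 against VD3 DCs. mt-Nd4l, at 239, 332.5 and 187 CPM, and mt-Nd6, at 31.4, 44.8 and 23.8 CPM, were highest with VD3 and lowest with Ndrg2-KO, as was mt-Atp8 at 74.0, 98.0 and 62.4 CPM. Against VD3 DCs these 3 differed by -0.83, -0.91 and -0.65. mt-Nd4l overlaps mt-Nd4 and mt-Atp8 overlaps mt-Atp6 on the same transcript, so how their reads were split is uncertain.

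Within the mitochondrial mRNA pool, which the total level does not affect, mt-Co1 was 20.3% of untreated, 21.6% of VD3 and 26.3% of Ndrg2-KO UMIs, and mt-Nd3 was 1.34%, 0.984% and 0.561%. The same order held in mature DC-like cells, where mt-Nd3 was 0.790%, 0.717% and 0.338% and mt-Co1 24.7%, 25.4% and 29.0%. In cycling-like cells mt-Nd3 was 1.63% of the untreated and 0.629% of the Ndrg2-KO pool. In clusters shared by both libraries mt-Nd3 was at 461 CPM in the untreated mature DC-like cells against 234 CPM in those of the knockout, and at 926 against 337 CPM in cycling-like cells. mt-Nd3 was thus lower in the Ndrg2-KO cells of each of these states, whereas for Ndufa4 the intervals of the shared mature DC-like cluster overlapped.

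**Figure D4:**
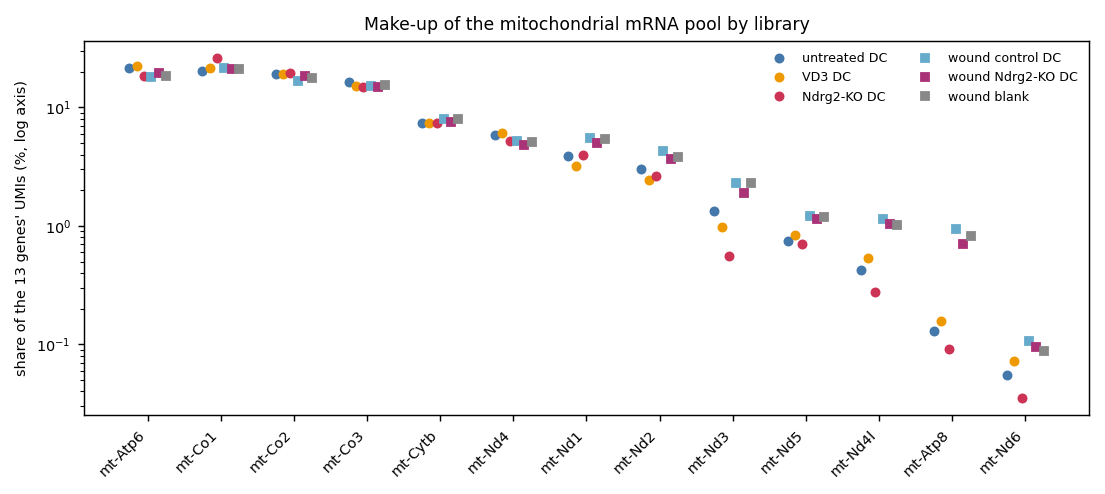
Share of each of the 13 mitochondrial genes in their summed UMIs, by library, on a log axis (circles, cultures; squares, wounds). mt-Nd3 falls from 1.34% in untreated to 0.561% in Ndrg2-KO DCs, and mt-Atp8 lies at 0.0920 to 0.157% in the cultures and at 0.708 to 0.943% in the wounds.

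The pool of the wounds differed from that of the cultures. mt-Atp8 was 0.708 to 0.943% of mitochondrial UMIs in the 3 wounds and 0.0920 to 0.157% in the 3 cultures, and mt-Nd4l was 1.01 to 1.15% and 0.276 to 0.533%. The wounds were processed with a later Cell Ranger version than the cultures, as the file headers give it, and tissue and processing cannot be told apart in this comparison. Among wounds mt-Nd3 was lowest with Ndrg2-KO DCs, at 371 CPM beside 498 CPM with control DCs and 469 CPM with blank hydrogels (Ndrg2-KO against control -0.42, -0.45 to -0.39).

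By cell state, the spread of the mitochondrial sum in the cultures rested largely on a pair of shallow clusters, and the nuclear sum spread less. Over the 17 clusters the highest nuclear sum was 1.94 times the lowest, and the highest mitochondrial sum 14.8 times the lowest. Over the other 15 clusters the nuclear sum ran from 21763 to 31989 CPM and the mitochondrial sum from 45108 to 73131 CPM. Mature DC-like cells had 22572, 24397 and 21673 CPM of nuclear members in the untreated, VD3 and Ndrg2-KO cultures and 58399, 62788 and 72423 CPM of mitochondrial members, the same order as the whole libraries. Progenitor-like cells were higher in nuclear members, at 27235 CPM (untreated) and 31394 CPM (VD3), as was the VD3 cluster led by Gdf15 and Ms4a7 at 32008 CPM.

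These shallow clusters stood apart from the rest. The cluster of 2130 cells led by Ifitm6 and Igkc had 39811, 44065 and 35583 CPM of nuclear members in the 3 cultures but 4167, 6508 and 4844 CPM of mitochondrial members, and that of 360 cells led by Gm26917 had 30243, 32092 and 26832 CPM and 2394, 3622 and 9786 CPM. Both were shallow, with median UMI counts of 0.156 and 0.281 times those of their own libraries, and were left unnamed. Both were also low in the nuclear RNA Malat1 in the untreated, VD3 and Ndrg2-KO cultures. It was at 272, 324 and 140 CPM in the cluster led by Ifitm6 and at 676, 630 and 868 CPM in that led by Gm26917. The other culture clusters had 2836 to 28801 CPM, so the values of these 2 clusters may not be those of intact cells. The first held 1458 VD3 cells, 563 untreated and 109 Ndrg2-KO cells. Without both clusters, a comparison added after the data were seen, the mitochondrial sum of VD3 against untreated DCs was 0.16 and that of Ndrg2-KO against untreated DCs 0.24, so neither sign rested on them.

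Within states that held at least 50 cells of both libraries, the nuclear sum was higher with VD3 than in untreated DCs in all 6 clusters, by 0.062 to 0.29, and lower with Ndrg2-KO in all 4 clusters, by -0.16 to -0.17. Those 4 held only 161, 109, 121 and 120 of the 7969 Ndrg2-KO cells, and both shallow clusters are among them. The main Ndrg2-KO clusters, of 3674, 1826 and 1061 cells, had too few untreated cells to be compared, as had the main VD3 cluster of 3297 cells. All genes with at least 100 UMIs in the pair had medians of -0.055 to 0.18 in the 6 VD3 clusters, 0.18 in progenitor-like cells (nuclear sum 0.21) and 0.10 in neutrophil-like cells (0.14), and of -0.24 to 0.039 in the 4 Ndrg2-KO clusters. In the shallow cluster led by Ifitm6 and Igkc the median of all genes (-0.24) was lower with Ndrg2-KO than the nuclear sum (-0.16). The mitochondrial sum went either way, from -0.18 to 0.64 for VD3 and from -0.24 to 2.03 for Ndrg2-KO DCs, where the value of 2.03 came from the shallow cluster led by Gm26917. Ribosomal protein genes differed by -0.16 to 0.15 for VD3 and by -0.41 to 0.035 for Ndrg2-KO in the same clusters. Their part in the nuclear differences was not tested.

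**Figure D5:**
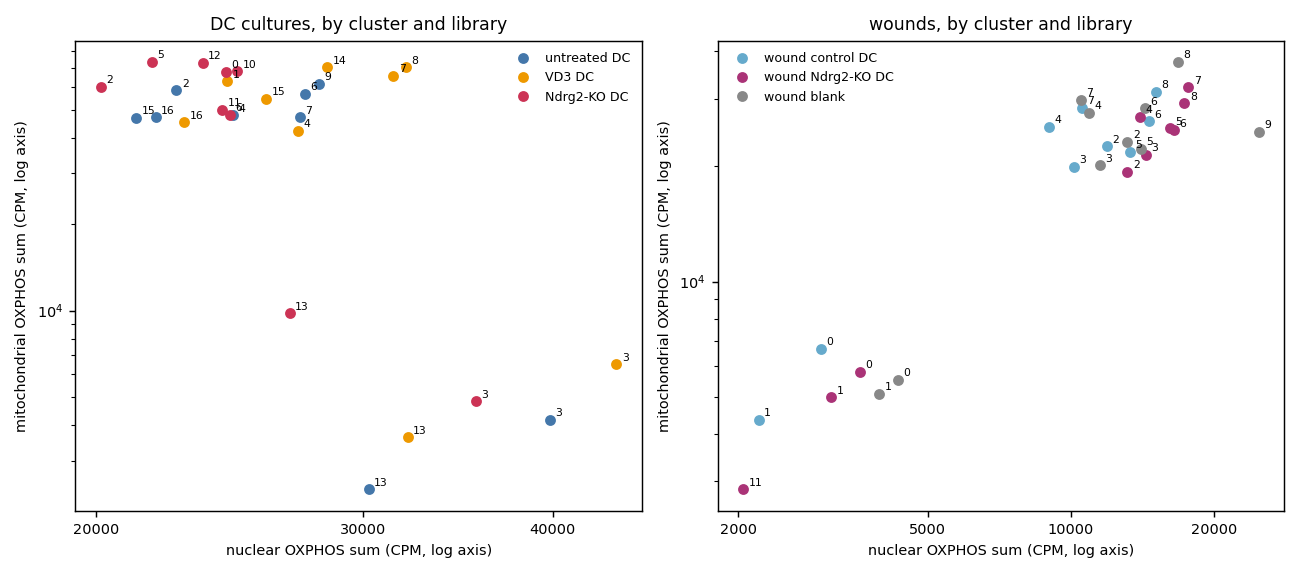
Nuclear (horizontal) against mitochondrial (vertical) sums in CPM, both on log axes, for each cluster with at least 50 cells of a library (left, cultures; right, wounds; numbers, clusters). The shallow culture clusters 3 and 13 lie below 10000 CPM of mitochondrial members, and the wound neutrophil-like clusters 0 and 1 lie at lower left of the other wound clusters, beside the erythroid-like cluster 11.

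In wounds the cell state set most of the range. The highest nuclear sum, that of the keratinocyte-like cluster, was 11.8 times the lowest. The highest mitochondrial sum, that of the mixed cluster led by Cldn5 and Emcn, was also 11.8 times the lowest. Both were lowest in the erythroid-like cluster of 75 cells, and with 30 principal components in place of 15 these values were 7.21 and 6.45. The 2 neutrophil-like clusters were low in both, with nuclear sums of 2987, 3603 and 4336 CPM in the main one and 2209, 3133 and 3963 CPM in the one led by Il23a and Ccl3 (control DC, Ndrg2-KO DC and blank), and mitochondrial sums of 4353 to 6670 CPM. Erythroid-like cells of the Ndrg2-KO DC wound had 2052 CPM of nuclear and 2862 CPM of mitochondrial members. Low levels in these states were not particular to the members. Ribosomal protein genes were at 18310, 21401 and 21981 CPM in the main neutrophil-like cluster and at 10080 CPM in these erythroid-like cells. In fibroblast-like cells they were at 117238, 151960 and 135726 CPM (control DC, Ndrg2-KO DC and blank). Keratinocyte-like cells of the blank wound had the highest nuclear sum, 24823 CPM, with nearly as much mitochondrial RNA (24618 CPM, 0.992 times the nuclear sum). Neutrophil-like cells of the cultures had 24610 CPM (untreated) and 27179 CPM (VD3) of nuclear members, far above those of the wounds, in libraries prepared apart.

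The neutrophil-like cells made up 463 of 1948 kept cells in the control DC wound, 2901 of 5681 in the Ndrg2-KO DC wound and 1563 of 3403 in the blank wound. They weigh on the sums of the whole libraries. Without them, a comparison added after the data were seen, the nuclear sums were 11037, 14782 and 13033 CPM and the mitochondrial sums 22329.6, 23265 and 23448 CPM. The nuclear difference from control DC wounds then grew from 0.24 to 0.42 for Ndrg2-KO DCs and from 0.13 to 0.24 for blank hydrogels, and the mitochondrial difference turned from -0.12 to 0.059 and from -0.072 to 0.070. As a mean in which each cell weighs the same, the nuclear difference was -0.032 for Ndrg2-KO DCs and -0.046 for blank hydrogels, so its direction held for summed RNA and not for the average cell.

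In the Ndrg2-KO DC wound, 73 of 85 nuclear members were higher and 12 lower than in the control DC wound, with a median log2 ratio of 0.24 beside -0.14 over all 12207 genes. Past 1.5-fold lay 3 higher and 2 lower nuclear members and no mitochondrial member, where 24.6% of all genes were past 1.5-fold (8.86% higher and 15.8% lower). The higher ones were Cox6a2 (1.36), Cox7a1 (1.04) and Ndufaf6 (0.67), and the lower ones Cox4i2 (-1.21) and Ndufaf4 (-0.60), all of them rare. Cox6a2 reached the minimum of 100 UMIs with 19 UMIs in the control and 81 in the Ndrg2-KO DC wound, and 42 of the 81 lay in 1 cell. Without that cell, a choice made after the data were seen, the pair held 58 UMIs, under the minimum, with a log2 ratio of 0.31 (-0.52 to 1.18), and 4 members were left past 1.5-fold. The nuclear sums of the complexes differed by small amounts: complex I summed to 3165 CPM with control and 3773 CPM with Ndrg2-KO DCs (0.25), complex III to 1107 and 1306 CPM (0.24), complex IV to 2940 and 3555 CPM (0.27), and complex V to 3280 and 3790 CPM (0.21). Of 13 mitochondrial members 12 were lower, with mt-Atp8 (-0.53) and mt-Nd3 (-0.42) the farthest and mt-Co2 (0.023) the exception.

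The blank wound, compared with the same control DC wound, had 65 of 84 nuclear members higher and 19 lower, with a median of 0.081 beside -0.032 over all 11916 genes. It had 2 members past 1.5-fold on the higher side, Cox7a1 (0.76) and Ndufaf6 (0.61), and none on the lower side, where 19.7% of all genes were past 1.5-fold (8.32% higher and 11.4% lower). Since both comparisons share the control wound, its own level enters both.

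Within cell states the nuclear sum was higher with Ndrg2-KO than with control DCs in all 9 comparable wound clusters, by 0.14 to 0.75. In fibroblast-like cells it was 10166 CPM with control, 14367 CPM with Ndrg2-KO DCs and 11514 CPM with blank hydrogels, and 77 of 78 members were higher with Ndrg2-KO, where 59.1% of all genes with at least 100 UMIs in the pair were higher. In macrophage-like cells led by Fcrls and Mrc1 it was 9007, 13972 and 10928 CPM, with 75 of 76 members higher beside 51.6% of all genes, and in those led by Cd209g and Lyve1 10539, 17665 and 10507 CPM, with 72 of 72 members higher beside 52.5% of all genes. DC-like cells led by Ccl22 and Ccr7 had 13327, 16160 and 14026 CPM, with 66 of 72 members higher beside 50.1% of all genes. The smallest difference was that of macrophage-like cells led by Mmp12 and Arg1, at 11906, 13150 and 13155 CPM, with 56 of 76 members higher beside 44% of all genes.

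Ribosomal protein genes were higher in the same 9 clusters, by 0.094 to 0.58, and mitochondrial members differed by -0.22 to 0.20. The members are short transcripts, and short genes as a whole were higher in this comparison: 76 of the 85 nuclear members lay in the shortest quartile of genes by transcript length, whose median log2 ratio was 0.071, beside -0.13, -0.20 and -0.30 in the longer quartiles. The median of the members in the shortest quartile was 0.25. The part of transcript length and of ribosomal protein genes in the result was not tested.

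Tissue-restricted forms of the subunits were unevenly spread over the cell states. Ndufa4l2, a relative of Ndufa4 known as a hypoxia-induced gene, was counted 1507, 2644 and 1239 times in the control DC, Ndrg2-KO DC and blank wounds and 0, 0 and 10 times in the untreated, VD3 and Ndrg2-KO cultures. It was at 90.6, 154 and 109 CPM in fibroblast-like cells and at 72.8, 67.8 and 126 CPM in the mixed cluster led by Cldn5 and Emcn, which held endothelial, pericyte and muscle markers. In neutrophil-like cells Ndufa4l2 was at or under 0.445 CPM, from at most 2 UMIs. At library level it was 50.8, 53.7 and 35.5 CPM, a log2 ratio of 0.080 (-0.011 to 0.17) for Ndrg2-KO DCs and -0.52 (-0.63 to -0.41) for blank hydrogels against control.

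Cox4i2, the form of complex IV subunit 4 known from lung and pericytes, was counted 71, 51 and 58 times in the control DC, Ndrg2-KO DC and blank wounds. Of these UMIs 52, 10 and 40 were in cells with at least 3 pericyte or smooth muscle markers, of which there were 60, 42 and 37. In the mixed cluster led by Cldn5 and Emcn it was at 54.0, 16.2 and 51.8 CPM, and the summed pericyte or smooth muscle markers (8 of 8 detected in each wound) were at 2424, 995 and 1872 CPM. The log2 ratio of -1.21 thus moved with the marker sum of the mixed cluster. It did not move with that of fibroblast-like cells, at 146, 156 and 478 CPM, which held 44, 25 and 28 of the cells with at least 3 such markers. The part of pericyte markers in the ratio was not tested. In the cultures Cox4i2 was counted 76, 11 and 3 times in untreated, VD3 and Ndrg2-KO DCs, with 63 of the 76 in cycling-like cells.

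Cox8b and Cox6a2 are muscle forms of complex IV subunits. All 24 Cox8b UMIs of the blank wound came from 6 cells, each with at least 3 skeletal muscle markers, and the other wounds had 5 UMIs each and the cultures 0. Cox6a2 was counted 19, 81 and 65 times in the control DC, Ndrg2-KO DC and blank wounds. Cells with at least 3 muscle markers held 3, 4 and 29 of these UMIs, so most of them lay elsewhere. In the Ndrg2-KO DC wound 42 of the 81 came from 1 cell, and without that cell 39 were left. The cultures, with no cell of 3 muscle markers, held 219, 107 and 151 Cox6a2 UMIs (untreated, VD3 and Ndrg2-KO). Cox8c was counted 1 time in all libraries.

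Cox7a1 in wounds had higher levels in macrophage-like and DC-like than in fibroblast-like cells. It was at 8.96, 19.8 and 12.7 CPM in macrophage-like cells led by Mmp12 and Arg1 and at 7.89, 14.2 and 11.8 CPM in those led by Fcrls and Mrc1, at 3.41, 7.21 and 9.96 CPM in DC-like cells, and at 1.75, 3.12 and 2.99 CPM in fibroblast-like cells (control DC, Ndrg2-KO DC and blank). Fibroblast-like cells nevertheless held 26, 40 and 29 of its UMIs, beside 8, 31 and 44 in DC-like cells and 22, 167 and 78 in the Mmp12 and Arg1 macrophage-like cells. Its ubiquitous relatives Cox7a2 and Cox7a2l, the latter a factor that joins complexes III and IV, were at 190, 258 and 241 CPM and at 141, 133 and 128 CPM in the wounds as a whole. RNA free in the droplets was not corrected for, and its part in low counts outside the main cell type was not tested.

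Other genes around the pathway were taken as lists and are given by counts and sums. Complex II (4 subunits), which the symbol rule leaves out, summed to 422, 381 and 544 CPM in untreated, VD3 and Ndrg2-KO DCs, and was higher in the Ndrg2-KO culture (0.37 against untreated, with 1 of 4 past 1.5-fold higher beside 17% of all genes) where the nuclear sums of complexes I, III, IV and V were lower. Of 13 citric acid cycle enzymes 3 were past 1.5-fold lower in Ndrg2-KO DCs and 2 in VD3 DCs, with sums differing by -0.021 and -0.21, where 17.9% and 15% of all genes were past it on that side. The 78 mitochondrial ribosomal proteins, of which 77 could be compared, differed by -0.29 as a sum in Ndrg2-KO DCs, with 11 past 1.5-fold on the lower and 1 on the higher side, beside 17.9% and 17% of all genes. The 10 electron carriers and exchangers had none past 1.5-fold in any of the 5 comparisons, where 19.7 to 37.4% of all genes were past it.

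In the Ndrg2-KO DC wound the glycolysis list moved further than any complex: 11 of 12 genes were past 1.5-fold higher and none lower than with control DCs, beside 8.86% and 15.8% of all genes, and the sum was 4991 CPM beside 3009 CPM (0.73). In the blank wound 6 of the 12 were past it on the higher and 1 on the lower side (0.52), beside 8.32% and 11.4% of all genes. The sum was higher with Ndrg2-KO DCs in fibroblast-like (3882 and 2637 CPM) and in Fcrls and Mrc1 macrophage-like cells (3332 and 2240 CPM) as well as in Mmp12 and Arg1 macrophage-like cells (9232 and 5902 CPM). The summed complex IV assembly list differed by 0.47 with Ndrg2-KO DCs but its median gene by -0.0032, with 1 of 12 past 1.5-fold. The citric acid cycle list differed by -0.020 (1 of 13 past 1.5-fold). In the cultures 5 of the 12 glycolysis genes were past 1.5-fold lower with VD3 than in untreated DCs (sum -0.26, median -0.45), beside 15% of all genes, and 2 were past 1.5-fold higher with Ndrg2-KO (sum 0.088), beside 17% of all genes.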

How the data were processed

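The authors deposited, for each 10x 3′ library, a matrix of UMI counts of genes by barcodes, not normalized. Per the file headers, Cell Ranger 3.1.0 wrote the culture matrices and Cell Ranger 6.0.0 those of the wounds. The labels name the mm9 build and the methods mm10. Feature identifiers were placed with a GRCm38 annotation. Reads were not used here. A barcode was kept when it had 300 genes or more, fewer than 100000 UMIs and a mitochondrial share of less than 10%. The methods word the lower limit as transcripts rather than genes, and 300 UMIs were therefore an alternative. UMIs were summed per library or per library and cluster and divided by all UMIs of the same cells (CPM). Ratios carry exact conditional binomial intervals, levels exact Poisson and shares exact Clopper-Pearson intervals, all at 95% and for counting error only. On simulated counts the intervals held the true ratio of 93.9 to 96.4% of the changed genes across the 5 comparisons. With 1 library per condition, a gene was counted as higher or lower past 1.5-fold where the pair of libraries had at least 100 UMIs. Culture and wound cells were clustered apart with Seurat 5.3.0 (2000 variable genes without the members and Ndrg2, 15 principal components, 15 neighbours, Louvain resolution 0.5). Clusters were named only from marker lists, and values per state need 50 cells of a library. No doublets were removed, since Scrublet in scanpy 1.11.5 marked at most 0.873% of a library. The 10 antibody features held 0 UMIs, and the transgene features 1 UMI.

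Genes were named by a rule: the mitochondrial members, the paralog sets, the member with the highest mean CPM of each complex, the 3 largest differences in each direction per comparison among nuclear members with at least 200 UMIs, and complex II. Members and lists were chosen with earlier results of these data known. Alternatives were all barcodes, a 5% limit, at least 300 UMIs in place of 300 genes, leaving out the 6% highest doublet scores, scaling without mitochondrial and ribosomal protein genes, the mean over cells, a minimum of 500 UMIs, and 3 other clusterings.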

Additional observations from a re-analysis of the deposited data

Results flagged for a closer look

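The differences of the summed members between Ndrg2-KO and comparison libraries had opposite signs in the cultures and in the wounds. The nuclear sum differed by -0.12 in Ndrg2-KO against untreated DCs and by 0.24 in wounds treated with Ndrg2-KO against control DCs, and the mitochondrial sum by 0.26 and -0.12 (log2 ratios of CPM). Of these signs only that of the culture nuclear sum held under each alternative run: the culture mitochondrial sum was -0.0094 with a 5% mitochondrial limit, the wound nuclear sum -0.032 as a mean over cells, and the wound mitochondrial sum 0.059 without the neutrophil-like clusters. The 5% limit selects cells on the mitochondrial share itself, so it cannot decide the sign of that sum. With 1 library per condition the gap between these differences was not tested. The cultures held the edited cells themselves, in which the knockout and the nucleofection cannot be told apart, and the wounds a mixture of host and delivered cells.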

How the results depend on the processing

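No paired analysis was possible because each condition had 1 library and the results come from no test. Values are log2 ratios for sums and counts of members past 1.5-fold, and the cause of a change was not tested except where the setting itself makes it. For VD3 against untreated DCs, the nuclear sum was 0.13 under a 5% limit, 0.21 when scaled without mitochondrial and ribosomal protein genes and 0.19 as a mean over cells. The mitochondrial sum was 0.19 over all barcodes, 0.13 without the highest doublet scores, 0.23 when scaled, and reversed to -0.19 under a 5% limit and to -0.011 as a mean over cells. The members past 1.5-fold were 6 under a 5% limit and 1 with at least 500 UMIs.

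For Ndrg2-KO against untreated DCs, the nuclear sum was -0.13 over all barcodes, -0.086 under a 5% limit, -0.21 when scaled and -0.15 as a mean over cells. The mitochondrial sum was 0.26 without the highest doublet scores, 0.17 when scaled and 0.36 as a mean over cells, and reversed to -0.0094 under a 5% limit, where Cox6a2 reversed to 0.049. Against VD3 DCs, the nuclear sum was -0.25 over all barcodes, -0.22 under a 5% limit, -0.42 when scaled and -0.34 as a mean over cells. The mitochondrial sum was 0.075 over all barcodes, 0.18 under a 5% limit, 0.13 without the highest doublet scores and 0.37 as a mean over cells, and reversed to -0.055 when scaled, where 22 members were past 1.5-fold. Cox7a1 reversed to 0.24 under a 5% limit.

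For Ndrg2-KO DC against control DC wounds, the nuclear sum was 0.21 over all barcodes, 0.20 with a 300 UMI minimum and 0.27 without the highest doublet scores, and reversed to -0.032 as a mean over cells. The mitochondrial sum was -0.26 over all barcodes, -0.11 under a 5% limit, -0.16 with a 300 UMI minimum, -0.11 without the highest doublet scores and -0.42 as a mean over cells. The members past 1.5-fold were 8 over all barcodes and 1 with at least 500 UMIs. For blank against control DC wounds, the nuclear sum was 0.19 over all barcodes, 0.16 with a 300 UMI minimum, 0.15 without the highest doublet scores and 0.11 when scaled, and reversed to -0.046 as a mean over cells. The mitochondrial sum was -0.056 over all barcodes, -0.079 under a 5% limit, -0.041 with a 300 UMI minimum, -0.064 without the highest doublet scores, -0.083 when scaled and -0.29 as a mean over cells. The members past 1.5-fold were 0 with at least 500 UMIs.

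Choices made after the data were seen were to leave out the 2 shallow clusters, which gave 0.11 (nuclear) and 0.16 (mitochondrial) for VD3 and -0.11 and 0.24 for Ndrg2-KO against untreated DCs and -0.22 and 0.084 for Ndrg2-KO against VD3 DCs, and to leave out the 2 neutrophil-like clusters, which gave 0.42 for Ndrg2-KO and 0.24 for blank wounds (nuclear) and reversed the mitochondrial sums to 0.059 and 0.070. Leaving out the cell with the most Cox6a2 UMIs of the Ndrg2-KO DC wound, also chosen then, gave 4 members past 1.5-fold and 0.31 for Cox6a2, from 58 UMIs. With 30 principal components the highest nuclear sum of a wound cluster was 7.21 times the lowest, and the highest mitochondrial sum 6.45 times the lowest. Another 50 values of sums and counts changed by less than their counting error or by under 1.5 times. Of the values of single genes, 334 stayed within their counting interval, 304 moved outside it and 2 reversed. A reversal was counted only for genes past 1.5-fold in the main run, so other changes of sign are within the first 2 counts. Under a 5% limit the mitochondrial members higher than in untreated DCs went from 10 to 2 of 13 with VD3 and from 9 to 3 with Ndrg2-KO.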
